A study of Rattus norvegicus with 32 samples.

Results

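The genes described here encode the voltage-gated sodium and calcium channels of the rat. They were taken by symbol from the deposited gene counts as every Scn gene ending in a number and a or b, and every Cacna1, Cacna2d and Cacnb gene, which gave 32 of the 28914 genes in the tables. Of these, 10 were sodium channel alpha subunits, 4 were sodium channel beta subunits, 10 were calcium channel alpha1 subunits, 4 were alpha2delta subunits and 4 were calcium channel beta subunits. RNA-seq was made from 4 brain regions of adult male Sprague-Dawley rats without genetic modification, namely the nucleus accumbens (NAc), the dentate gyrus (DG), the Ammon's horn (CA) and the subventricular zone (SVZ). METH rats received 4 intraperitoneal injections of 10 mg/kg methamphetamine, 2 h apart, saline rats (Sal) received saline on the same schedule, and the regions were collected 24 h after the end of dosing. Each of the 8 groups of region and treatment held 4 libraries, and the labels do not say which libraries came from one animal, so that p-values measure the spread between these libraries. Per the study's methods the regions were dissected from the same brains, and library numbers recur across the NAc, DG and CA, so libraries of different regions may share an animal, which the tests between and over regions did not take into account. The tissues were dissected by hand and hold mixed cell types. The 32 libraries held between 11094002 and 21869773 counted reads, and the channel genes took 0.339 to 0.662% of them.

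A voltage-gated sodium channel is built from an alpha subunit, which forms the pore and carries the voltage sensors, and from beta subunits, which alter gating and also act as cell adhesion molecules. Sodium current starts and carries the action potential along the axon. Calcium channels are built in a similar way from an alpha1 pore, an alpha2delta subunit that brings the channel to the surface and a cytoplasmic beta subunit. Their alpha1 genes fall into L-type channels, which couple activity to transcription, P/Q-, N- and R-type channels, which serve transmitter release, and low-voltage T-type channels, which set bursting and rhythm.

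Several libraries stood apart from others of their group by the summed CPM (reads scaled to library size) of marker gene lists, and the values below are given with and without them where it matters. The 8 striatal medium spiny neuron markers summed to 1718 to 9064 CPM in the NAc libraries except NAc METH 3, at 268 CPM, and to 178 to 470 CPM in the DG libraries except DG Sal 3, at 2010 CPM. The 5 cortical glutamatergic neuron markers summed to 81.7 CPM in DG Sal 3, against 1299 to 1841 CPM in the other DG Sal libraries. Neurod6, a CA pyramidal neuron marker, had 1 read in DG Sal 3 and 506 to 1630 reads in those. DG Sal 4 held 39072 reads of Tph1 and 881 of Crx, genes known from the pineal gland. The 5 thalamic markers summed to 1772, 1565 and 1055 CPM in SVZ Sal 1, SVZ METH 2 and SVZ METH 4, and to 75.7 to 479 CPM in the other SVZ libraries. Oligodendrocyte markers summed to 18400, 25460 and 27200 CPM in these 3, against 3793 to 9323 CPM in the other SVZ libraries. Choroid plexus markers summed to 8239 CPM in SVZ METH 3, 6119 in DG METH 3, 2050 in DG Sal 4 and 2141 in CA Sal 2, and to at most 382 CPM in every other library, and their part in the results was not tested. The 4 dentate granule neuron markers did not separate the labelled DG from the labelled CA, with 28.2 to 201 CPM in DG Sal and 46.1 to 397 CPM in CA Sal. Library numbers in the table headers were crossed in the DG, where DG Sal 1 and DG Sal 2 bore numbers 20 and 21, which belong to METH libraries in the NAc and CA, and DG METH 1 and DG METH 2 bore numbers 14 and 15, which belong to Sal libraries there.

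Levels were compared between genes as CPM per kilobase (kb) of exon, which corrects for length. Among the sodium channel pores, Scn2a and Scn8a had the highest levels, with medians over the 32 libraries of 70.8 and 64.6 CPM per kb. Scn2a is a pore of excitatory neurons, and Scn8a carries most current at nodes of Ranvier. Scn2a ranged from 21.9 to 90.4 CPM per kb and Scn8a from 34.3 to 106 CPM per kb. Scn3a, a pore of immature neurons, followed at 17.3 CPM per kb, and Scn1a, the main pore of fast-spiking interneurons, at 9.41 CPM per kb. Scn9a, known from nociceptors, stood at 1.89 CPM per kb, Scn4a, the skeletal muscle pore, at 0.454 and Scn7a, a sodium-sensing relative, at 0.295. The nociceptor pores Scn11a and Scn10a had medians of 0.0824 and 0.0398 CPM per kb, and Scn10a had at most 10 reads in any library and did not pass the filter on low counts in any comparison of the full groups. The beta subunits Scn2b, Scn3b and Scn4b were well above these low levels, at 128, 72.1 and 28.3 CPM per kb.

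Among the calcium channel pores the R-type gene Cacna1e was highest, with a median of 71.8 CPM per kb and a range of 8.87 to 87.3 CPM per kb. The P/Q-type gene Cacna1a and the T-type gene Cacna1i followed at 30.8 and 27.5 CPM per kb, and the N-type gene Cacna1b at 22.8 CPM per kb. The L-type pores of neurons, Cacna1c and Cacna1d, had medians of 19.8 and 11.5 CPM per kb, and the other T-type pores, Cacna1h and Cacna1g, had 20.3 and 12.7 CPM per kb. The retinal pore Cacna1f and the skeletal muscle pore Cacna1s lay at 0.0767 and 0.0728 CPM per kb. Of the alpha2delta subunits, Cacna2d1 and Cacna2d3 had medians of 51.2 and 49.0 CPM per kb, Cacna2d2 had 22.0 and Cacna2d4, the retinal form, had 0.10. The beta subunits were the most even, with Cacnb3 at 56.9, Cacnb1 at 45.3, Cacnb4 at 40.2 and Cacnb2 at 27.5 CPM per kb. Reads of Scn9a and Cacna1h are uncertain to a small degree, since their exons share 150 and 146 bases with another gene and the counting did not use strand.

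**Figure D1:**
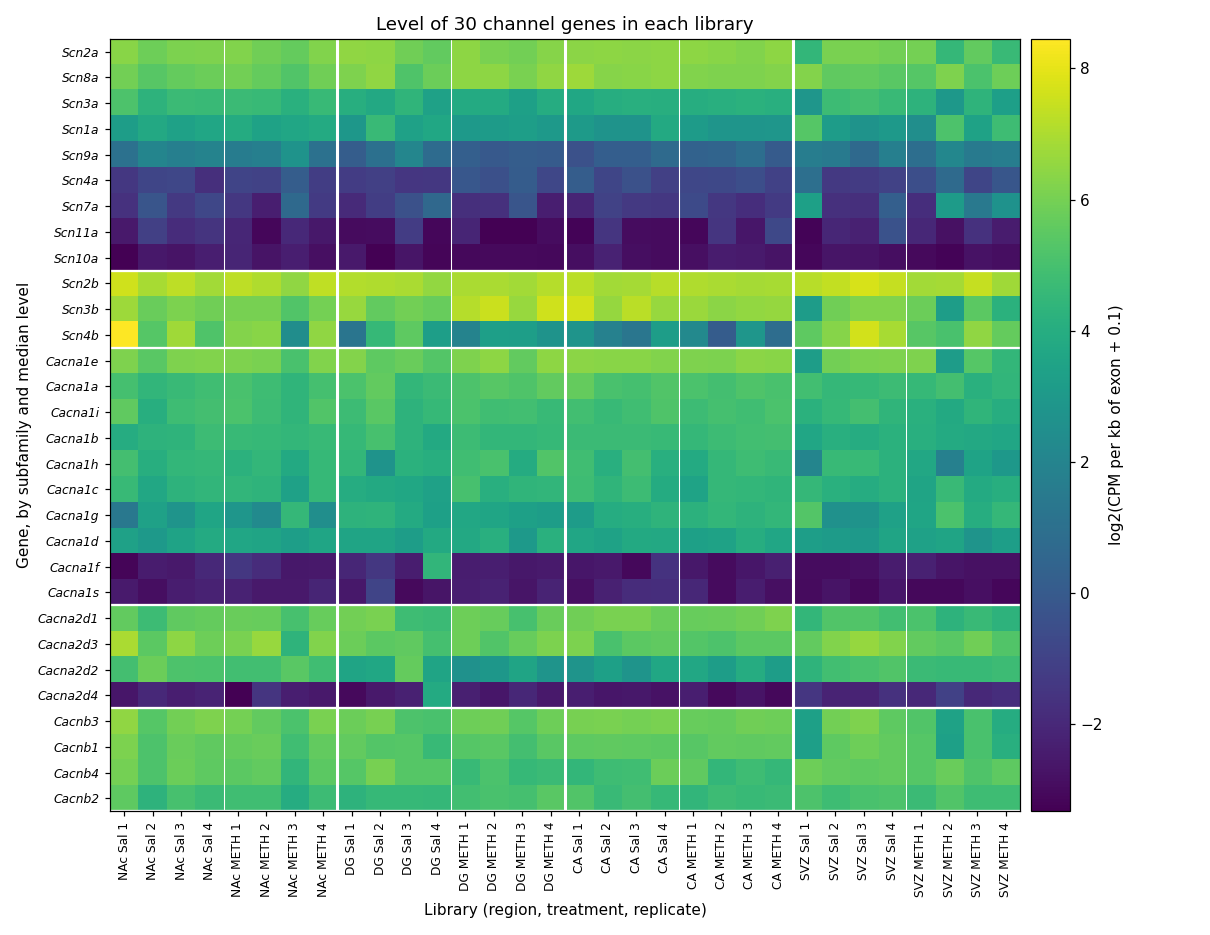
Level of the channel genes (rows, by subunit class) in the 32 libraries (columns, by region and treatment), as log2(CPM per kb of exon + 0.1). The rows of Scn2b, Scn2a and Scn8a are bright throughout, the row of Scn4b is bright in the NAc and SVZ, and Cacna1f and Cacna2d4 are bright in DG Sal 4 alone.

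Single libraries set the level of the retinal calcium channel genes. DG Sal 4 held 1555 of the 1807 Cacna1f reads in the series and 616 of the 826 Cacna2d4 reads, at 21.1 and 14.6 CPM per kb. In the other libraries Cacna1f lay between 0.0125 and 0.280 CPM per kb and Cacna2d4 between 0 and 0.388 CPM per kb. The pineal genes above had their reads in the same library, and their part in these levels was not tested.

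The first question was how the channel genes differ between regions. Among the 16 METH libraries, 9 of the 28 channel genes tested differed between regions at a false discovery rate (FDR) under 0.01 and a difference above 1.5-fold between the highest and the lowest region, by edgeR's quasi-likelihood F-test, against 9.18% of the 15615 genes tested. The median difference between the highest and lowest region was 1.05 on the log2 scale over the channel genes and 0.52 over all genes. At an unadjusted p under 0.05 there were 18 channel genes, where 44% of all genes were. Sequencing runs were read from name parts in the headers of the deposited counts, where CA Sal 1 and CA Sal 2 were named merged. They may differ from the batches that the study's methods state. By these names the SVZ libraries, and no others, formed one run. A difference between the SVZ and another region therefore cannot be told apart from the run. SVZ METH 1 and SVZ METH 2 bore the same library number, as did SVZ METH 3 and SVZ METH 4. In bulk tissue, fewer cells of a type and less RNA per cell cannot be told apart in any of these differences. Among the 9 were genes higher in the NAc, genes higher in the CA or DG than in the SVZ, and Scn7a.

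By group means, Scn4b, Cacna2d2 and Scn9a were highest in the NAc METH libraries. Scn4b, a beta subunit that contributes to resurgent sodium current, had 77.1, 81.6, 5.35 and 90.4 CPM per kb in NAc METH 1 to 4 and 41.5, 33.2, 90.7 and 50.9 in SVZ METH. It had 3.75, 9.92, 9.47 and 6.42 CPM per kb in DG METH and 4.50, 0.959, 7.11 and 1.74 in CA METH. Apart from NAc METH 3, which also had the lowest striatal marker sum of the NAc libraries, every NAc and SVZ library was above every DG and CA library. The log2 difference between the NAc and CA was 4.15 ± 0.78 (SE; edgeR FDR = 0.00639), and that between the CA and SVZ was -3.92 ± 0.77 (edgeR FDR = 0.00388), while the NAc and SVZ were not told apart by the test, in which 9 genes in all were called (0.0576%).

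Cacna2d2, an alpha2delta subunit found in inhibitory and cerebellar neurons, had 29.9, 29.1, 43.5 and 28.9 CPM per kb in NAc METH, and 25.6, 24.1, 24.5 and 27.1 in SVZ METH. In DG METH it had 6.13, 7.35, 11.6 and 6.66 CPM per kb, and in CA METH 13.4, 9.34, 15.8 and 9.37. The NAc and SVZ did not overlap with the DG and CA. The NAc was above the DG by 2.05 ± 0.22 (edgeR FDR = 0.000121) and above the CA by 1.46 ± 0.22 (edgeR FDR = 0.00189) on the log2 scale. The DG and CA were not told apart, and no gene of the whole table was called between them (0%).

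The low-level pore Scn9a had the same order of region means as Cacna2d2. It had a mean of 3.69 ± 1.99 CPM per kb (SD, n = 4) in NAc METH, 2.97 ± 1.00 in SVZ METH, 1.31 ± 0.363 in CA METH and 0.977 ± 0.0951 in DG METH. The NAc and DG differed by 1.92 ± 0.33 on the log2 scale (edgeR FDR = 0.00210). NAc METH 1 to 4 had 2.96, 3.25, 6.56 and 1.99 CPM per kb, so that NAc METH 3 raised the NAc mean. SVZ METH 1 to 4 had 1.825, 4.24, 2.71 and 3.09, which overlapped with the NAc.

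Scn3b, Cacna1b, Cacna2d1 and Cacna1i were higher in the hippocampal libraries than in the SVZ. The NAc METH means were above the SVZ METH means as well. Cacna1b, Cacna2d1 and Cacna1i had means of 23.5, 47.3 and 30.2 CPM per kb in NAc METH, against 14.5, 24.6 and 17.1 in SVZ METH. For Scn3b the means were 58.0 in NAc METH and 32.2 in SVZ METH. Scn3b, a beta subunit of central neurons, had 139, 181, 98.8 and 196 CPM per kb in DG METH and 56.5, 9.20, 45.1 and 17.9 in SVZ METH, without overlap, and the log2 difference was 2.25 ± 0.43 (edgeR FDR = 0.00285). Cacna1b, the pore of N-type channels in presynaptic terminals, had 23.1, 27.0, 29.7 and 30.03 CPM per kb in CA METH and 17.3, 14.4, 13.9 and 12.5 in SVZ METH. Its log2 difference of 0.91 ± 0.11 (edgeR FDR = 0.000433) was the smallest of the 9 but for that of Cacna1i. Cacna2d1, the gabapentin-binding subunit, had means of 59.2 ± 9.06 CPM per kb in CA METH and 24.6 ± 7.05 in SVZ METH (SD, n = 4), a log2 difference of 1.26 ± 0.22 (edgeR FDR = 0.00246). The T-type gene Cacna1i had 30.3 ± 3.42 and 17.1 ± 2.84 CPM per kb in the same groups, a log2 difference of 0.82 ± 0.18 (edgeR FDR = 0.00614).

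Scn7a was highest in the SVZ, and 3 libraries carried that level. SVZ METH 1 to 4 had 0.187, 8.66, 2.62 and 6.34 CPM per kb, and the CA METH libraries had 0.190 to 0.523. The difference over regions had an edgeR FDR of 0.00907 for a log2 range of 3.80. Without NAc METH 3, SVZ METH 2 and SVZ METH 4 the range was 2.63 and the edgeR FDR was 0.0952.

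Without those 3 libraries, 11 of 30 channel genes were called among the METH samples, where 9.92% of all genes were. Scn4b, Cacna2d2, Scn9a, Scn3b and Cacna1b were among those called again. Cacna2d1, Cacna1i and Scn7a were no longer called. Cacna1g, Scn8a, Scn3a and Cacna1a were among those called in addition. Cacna1g, a T-type pore that is abundant in thalamic neurons, had the lowest FDR of these, with a log2 range of 1.81 between the CA and NAc (edgeR FDR = 0.000108). Without DG METH 1 and DG METH 2, whose library numbers were crossed, Cacna2d2 and Cacna1b were the 2 channel genes called, where 3.58% of all genes were. Leaving out one METH library at a time gave 4 to 11 channel genes, where 5.42 to 13% of all genes were called. With the SVZ METH libraries of the same number summed, 11 of 31 channel genes were called, where 8.98% of all genes were. Cacna2d1 (log2 range 1.29, edgeR FDR = 0.0153) and Cacna1i (0.84, edgeR FDR = 0.0428) were then no longer called, and the other 7 were called again.

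**Figure D2:**
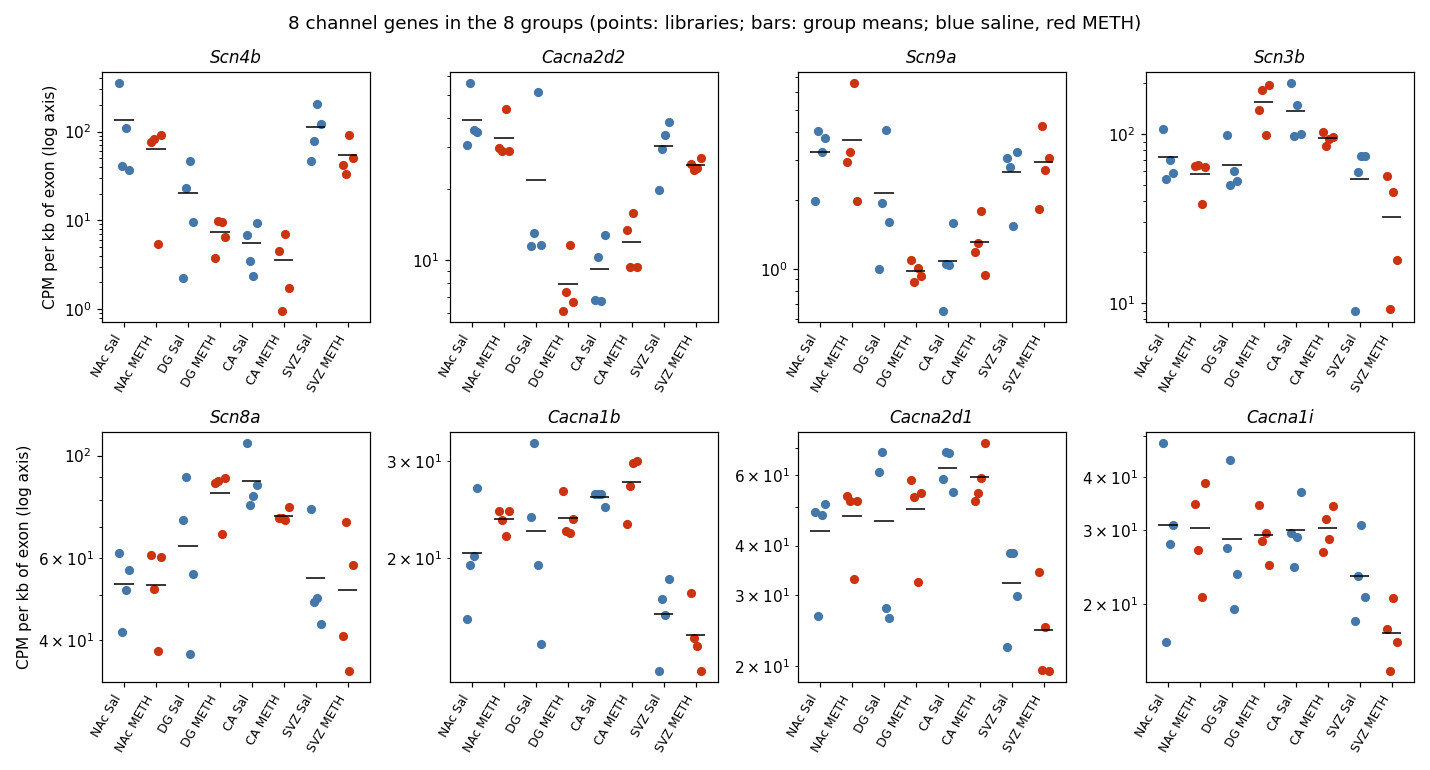
Level (CPM per kb of exon, log axis) of 8 channel genes in the 8 groups of region and treatment, each point a library. The Scn4b, Cacna2d2 and Scn9a points of the NAc and SVZ lie mostly above those of the DG and CA, with single libraries such as NAc METH 3 for Scn4b and DG Sal 3 for Cacna2d2 outside their group.

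Among the 16 saline libraries none of the 30 channel genes tested reached the same threshold by edgeR, nor did any of the 15515 genes (0%), and DESeq2 called 2 channel genes, Cacna2d2 and Scn4b, where it called 7.77% of all genes. At an unadjusted p under 0.05 there were 10 channel genes, against 26.7% of all genes. The median log2 range over regions was 0.80 for the channel genes and 0.46 for all genes. Scn4b had 350, 41.0, 109 and 36.6 CPM per kb in NAc Sal and 46.1, 79.2, 202 and 122 in SVZ Sal, against 2.25, 23.3, 46.7 and 9.48 in DG Sal and 6.82, 3.50, 2.37 and 9.30 in CA Sal. The lowest NAc and SVZ values overlapped with the highest DG value, that of DG Sal 3. Its log2 range was 4.61, with an edgeR FDR of 0.0311.

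Cacna2d2 had 30.8, 55.9, 35.4 and 34.9 CPM per kb in NAc Sal, 11.5, 12.99, 51.5 and 11.6 in DG Sal and 6.77 to 12.9 in CA Sal. DG Sal 3, with its high striatal marker sum, was the one DG library within the NAc range. The log2 range of Cacna2d2 over regions was 2.096, with an edgeR FDR of 0.0513. Scn9a, Scn7a and Cacna1c had log2 ranges of 1.598, 3.43 and 0.78 with edgeR FDR of 0.0812, 0.106 and 0.107. Cacna1f had a log2 range of 6.84 (edgeR FDR = 0.0239), from the reads of DG Sal 4. Without DG Sal 3, DG Sal 4 and SVZ Sal 1, 4 of 31 channel genes were called in saline, where 7.19% of all genes were, among them Cacna2d2 with a log2 range of 2.1 (edgeR FDR = 0.000667), Scn8a with 0.91 (edgeR FDR = 0.00309), and Scn3a with 0.85 (edgeR FDR = 0.00793). Without DG Sal 1 and DG Sal 2 the 2 channel genes called were Cacna1f and Cacna2d4, where 1.07% of all genes were called.

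The promoters of 4 genes whose levels differed between regions are shown, since they differ among themselves in base composition. Each is the 250 bases before the annotated start in the RefSeq table (build GRCr8, not the rn6 build of the counts), printed along the gene's strand, with capitals for the motifs searched on both strands. RefSeq entries were found for 22 of the 32 channel genes, with 25 promoters. Scn4b lies at chr8:54343623-54343872 (+), Cacna2d2 at chr8:116950856-116951105 (+), Cacna1b at chr3:27944286-27944535 (-) and Scn7a at chr3:71846285-71846534 (-).
Scn4b: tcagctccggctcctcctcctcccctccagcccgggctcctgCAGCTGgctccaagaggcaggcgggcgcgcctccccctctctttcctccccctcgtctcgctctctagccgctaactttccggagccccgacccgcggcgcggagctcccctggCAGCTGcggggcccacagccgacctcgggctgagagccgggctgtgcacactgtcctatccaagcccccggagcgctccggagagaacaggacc
Cacna2d2: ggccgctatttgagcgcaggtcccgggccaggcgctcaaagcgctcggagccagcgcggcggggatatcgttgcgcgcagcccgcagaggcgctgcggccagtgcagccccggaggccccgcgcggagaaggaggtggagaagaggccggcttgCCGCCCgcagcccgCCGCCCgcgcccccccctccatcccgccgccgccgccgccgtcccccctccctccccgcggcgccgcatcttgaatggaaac
Cacna1b: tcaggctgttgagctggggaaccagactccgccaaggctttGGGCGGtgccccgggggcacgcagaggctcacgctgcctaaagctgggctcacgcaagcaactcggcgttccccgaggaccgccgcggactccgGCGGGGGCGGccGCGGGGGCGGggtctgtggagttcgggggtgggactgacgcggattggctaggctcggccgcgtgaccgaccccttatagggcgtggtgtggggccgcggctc
Scn7a: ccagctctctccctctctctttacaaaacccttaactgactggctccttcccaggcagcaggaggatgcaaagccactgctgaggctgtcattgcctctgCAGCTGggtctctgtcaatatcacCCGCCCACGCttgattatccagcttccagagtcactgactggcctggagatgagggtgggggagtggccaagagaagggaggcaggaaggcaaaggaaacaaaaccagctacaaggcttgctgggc

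The capitals mark 2 E-boxes (CAGCTG) in Scn4b, at 208 and 94 bases before the start, and 2 GC boxes (GGGCGG, read on the other strand) in Cacna2d2, at 96 and 82 bases. In Cacna1b they mark 3 GC boxes, 2 of which overlap with a motif of the EGR factors (GCGGGGGCG). In Scn7a they mark an E-box at 150 bases and, on the other strand, an EGR motif (GCGTGGGCG) that overlaps with a GC box. Of all 33469 promoters of the same length, 30.5% held GGGCGG, 12.0% held CAGCTG, 2.45% held GCGGGGGCG and 0.478% held GCGTGGGCG, and of the 25 channel promoters 13, 6, 4 and 1 did. The other motifs searched, a second E-box (CAGATG) and the TATA box (TATAAA), were in 14.0% and 12.9% of all promoters and in 1 channel promoter each. The dinucleotide CG occurred 36 times in the Cacna2d2 promoter, 28 times in Cacna1b, 21 times in Scn4b and 2 times in Scn7a, with a median of 11 over the channel promoters and 5 over all promoters. These are descriptions of letters, and binding at these sites was not measured in the libraries used here.

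The second question was the response to METH 24 h after the binge. No channel gene passed FDR under 0.01 and 1.5-fold by edgeR in any region, and none of the other genes did (0% in the NAc, DG, CA and SVZ). The regions differed in how many channel genes reached an unadjusted p under 0.05. There were 0 of 28 in the NAc, where 3.39% of all genes did, 9 of 27 in the DG, where 12.8% did, 3 of 27 in the CA, where 7.16% did, and 3 of 29 in the SVZ, where 2.58% did. By DESeq2 the FDR threshold was passed by 3 channel genes in the DG, where 1.3% of all genes passed, and by none in the NAc (0.0203% of all genes), CA (0.089%) or SVZ (0.0128%).

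**Figure D3:**
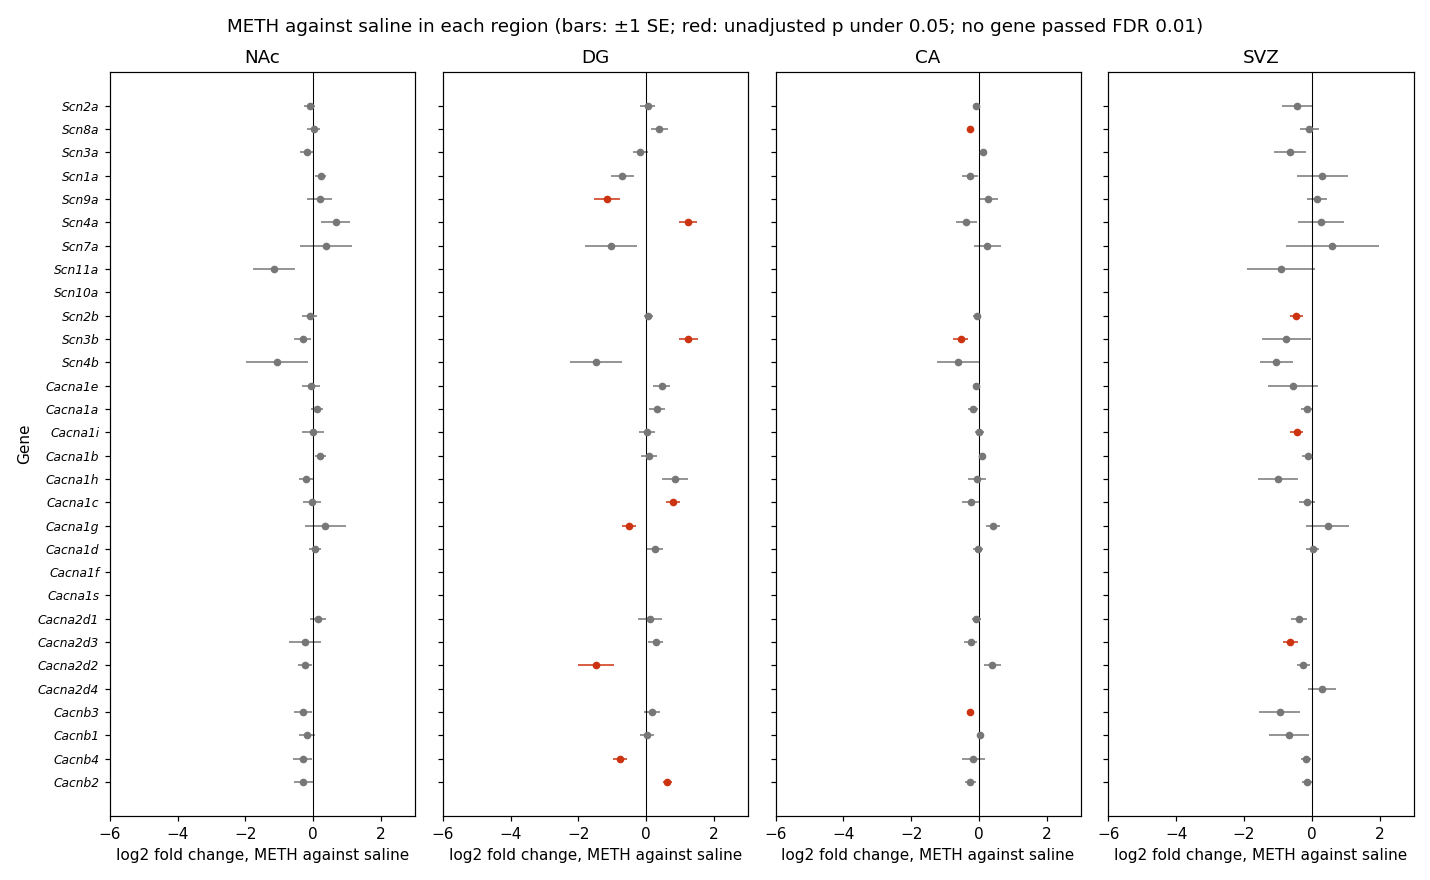
Difference between METH and saline (log2, point) with its standard error (bar) for each channel gene tested in the 4 regions, from edgeR. Red points have an unadjusted p under 0.05, and these lie on both sides of 0 in the DG, below 0 in the CA and SVZ, and do not occur in the NAc.

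In the NAc the channel gene with the smallest p had an edgeR FDR of 0.999. The median log2 difference was -0.06, against 0.03 over all genes. Scn4b had mean levels of 134 ± 147 CPM per kb in saline and 63.6 ± 39.2 after METH (SD, n = 4), a difference within the spread of the libraries. Scn2a had 70.5 ± 9.71 and 65.1 ± 11.2 CPM per kb, and Scn8a had 52.8 ± 8.59 and 52.7 ± 10.8.

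In the DG, 4 of the 9 genes were higher after METH, where 6.35% of all genes were, and 5 were lower, where 6.42% were. DG Sal 1, DG Sal 2 and DG Sal 4 came from a run without a DG METH library. DG METH 3 and DG METH 4 came from a run without a DG saline library. Only DG Sal 3 shared its run with METH libraries of the DG, so METH and the run can largely not be told apart. Scn4a, the muscle pore, had 0.326, 0.364, 0.265 and 0.272 CPM per kb in saline and 0.803, 0.633, 0.971 and 0.469 after METH. The groups did not overlap, and the log2 difference was 1.23 ± 0.26 (edgeR FDR = 0.172). Scn3b had 98.2, 49.8, 60.6 and 52.5 CPM per kb in saline and 139, 181, 98.8 and 196 after METH. The highest saline library lay just under the lowest METH library, and the log2 difference was 1.24 ± 0.28 (edgeR FDR = 0.176).

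Cacnb2, a beta subunit of L-type channels, had 19.4, 23.8, 23.7 and 22.5 CPM per kb in saline and 29.6, 33.5, 31.7 and 42.9 after METH, without overlap. Its log2 difference was 0.62 ± 0.14 (edgeR FDR = 0.172). The L-type pore Cacna1c had 15.3, 14.0, 12.7 and 10.6 CPM per kb in saline and 32.8, 17.0, 20.4 and 21.4 after METH, again without overlap, with a log2 difference of 0.80 ± 0.21 (edgeR FDR = 0.204). The other L-type pore, Cacna1d, had 11.7 ± 2.03 and 14.0 ± 4.50 CPM per kb (SD, n = 4), within the spread.

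Cacnb4, the beta subunit of P/Q-type channels, was lower after METH, with 40.4, 65.0, 40.1 and 40.0 CPM per kb in saline and 24.6, 34.3, 23.5 and 26.2 after METH. These groups did not overlap, and the log2 difference was -0.77 ± 0.20 (edgeR FDR = 0.204). Scn9a had 0.993, 1.95, 4.07 and 1.61 CPM per kb in saline and 1.10, 0.877, 1.00 and 0.931 after METH, which overlapped, with a log2 difference of -1.14 ± 0.38 (edgeR FDR = 0.281). In all, 5 channel genes had groups that did not overlap in the DG, where 7.39% of all genes did.

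Cacna2d2 and Cacna1g were also below that p in the DG, with log2 differences of -1.47 and -0.51. DG Sal 3 held 51.5 CPM per kb of Cacna2d2, against 11.5 to 12.99 in the other saline libraries. Without DG Sal 3 and DG Sal 4 the log2 difference was -0.62 for Cacna2d2 (edgeR FDR = 0.355) and -0.58 for Scn9a (edgeR FDR = 0.385), neither at an unadjusted p under 0.05. The differences of Scn4a, Scn3b, Cacnb2, Cacna1c and Cacnb4 were then 1.06, 1.06, 0.68, 0.65 and -0.95, each still at an unadjusted p under 0.05, and that of Cacna1g was -0.80 (edgeR FDR = 0.162). Without the 4 libraries with crossed numbers those of Scn4a, Scn3b, Cacnb2, Cacna1c and Cacnb4 were 1.42, 1.38, 0.69, 0.84 and -0.69, each at an unadjusted p under 0.05 by edgeR, while those of Cacna1g (-0.33, edgeR FDR = 0.797) and Cacna2d2 (-1.79, edgeR FDR = 0.739) were not. With the sequencing run as a term, only DG Sal 3, with its high striatal and low cortical glutamatergic marker sums, was set against METH libraries. Those were DG METH 1 and DG METH 2, and the part of the marker levels in these values was not tested. The log2 difference was then 0.41 for Cacnb2, -0.45 for Cacnb4 and -0.22 for Cacna1g. For Scn9a and Cacna2d2, whose highest saline values were those of DG Sal 3, it was -2.05 and -2.94. The dentate granule neuron markers summed to 28.2 to 201 CPM in the saline DG and 73.1 to 415 CPM after METH, and their part in the differences was not tested.

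In the CA the 3 genes at an unadjusted p under 0.05 were all lower after METH, where 2.79% of all genes were. Cacnb3, the most abundant of the calcium channel beta subunits, had 64.7, 68.4, 63.8 and 67.6 CPM per kb in saline and 52.6, 50.1, 58.8 and 56.8 after METH. The groups did not overlap, with a log2 difference of -0.28 ± 0.07 (edgeR FDR = 0.669). Scn8a had 106, 78.1, 81.8 and 86.3 CPM per kb in saline and 73.3, 73.2, 72.5 and 77.6 after METH, also without overlap, with a log2 difference of -0.25 ± 0.10 (edgeR FDR = 0.687). These were the 2 channel genes whose groups did not overlap, where 4.43% of all genes did. Scn3b had 200, 97.3, 148 and 101 CPM per kb in saline and 102, 85.4, 92.9 and 95.6 after METH, with a log2 difference of -0.54 ± 0.22 (edgeR FDR = 0.687). Without CA Sal 1 the differences of Scn3b and Scn8a were -0.29 and -0.15, and neither had an unadjusted p under 0.05. Over the 16 alternatives Scn3b lost such a p in 7, Scn8a in 8 and Cacnb3 in 1. The dentate granule neuron markers summed to 46.1 to 397 CPM in the saline CA and 67.4 to 199 CPM after METH.

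**Figure D4:**
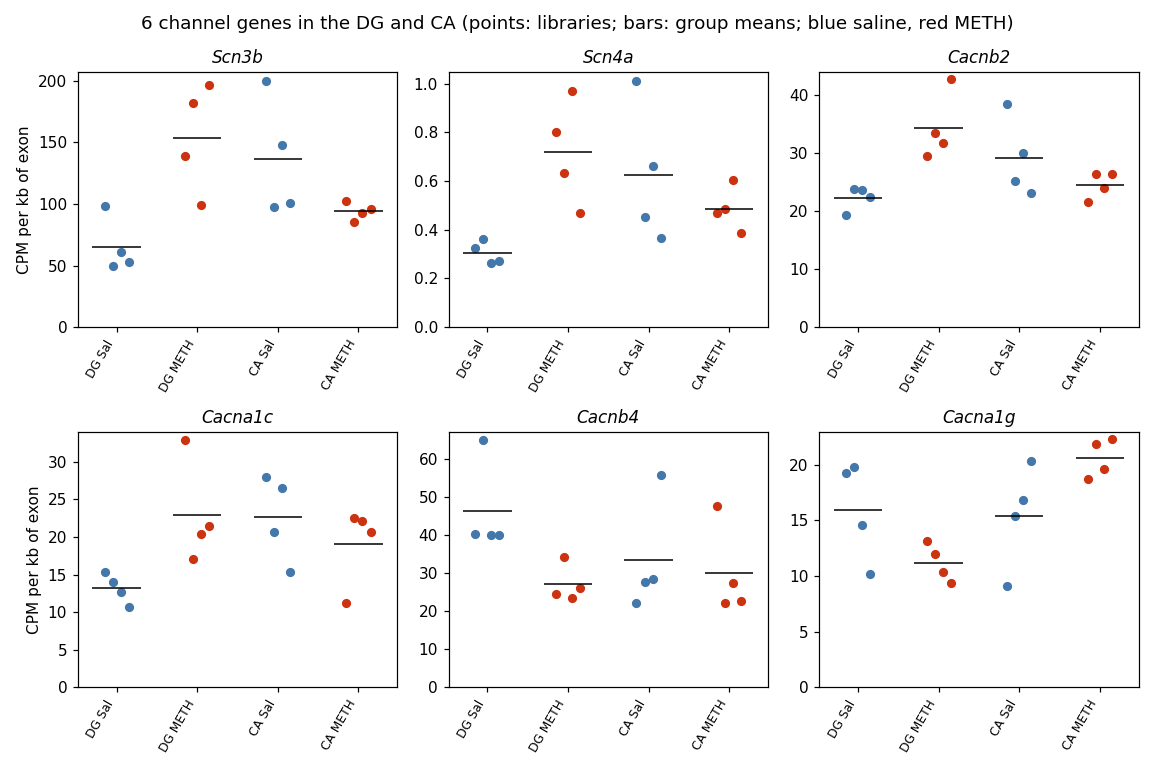
Level (CPM per kb of exon) of Scn3b, Scn4a, Cacnb2, Cacna1c, Cacnb4 and Cacna1g in the saline and METH libraries of the DG and CA, each point a library. In the DG the METH points of the first 4 genes lie above the saline points and those of Cacnb4 below, while in the CA the groups overlap.

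Whether METH acted differently on the channel genes in the 2 hippocampal areas was tested in one fit of the 16 DG and CA libraries. This fit had no term for the run, which in the DG largely went with treatment. No channel gene passed the FDR threshold by edgeR (0% of all genes did), and 10 of 30 had an unadjusted p under 0.05, where 15.4% of all genes did. The effect on Scn3b was higher in the DG than in the CA by 1.77 ± 0.38 on the log2 scale (edgeR FDR = 0.126), that on Scn4a by 1.59 ± 0.42 (edgeR FDR = 0.132), that on Cacna1c by 1.04 ± 0.35 (edgeR FDR = 0.195) and that on Cacnb2 by 0.87 ± 0.21 (edgeR FDR = 0.126). DESeq2 called Scn3b, with an FDR of 0.00252, where it called 0.555% of all genes. Cacna2d2 and Cacna1g had differences of -1.86 ± 0.63 (edgeR FDR = 0.195) and -0.94 ± 0.32 (edgeR FDR = 0.199). Without DG Sal 3 and DG Sal 4 the values for Scn3b, Scn4a, Cacna1c, Cacnb2, Cacna2d2 and Cacna1g were 1.59, 1.43, 0.89, 0.93, -1.01 and -1.22. Without the 4 libraries with crossed numbers that of Cacna1g no longer had an unadjusted p under 0.05, at -0.75 (edgeR FDR = 0.351).

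In the SVZ the fitted difference was below 0 for 21 of 29 channel genes and for 47.1% of all genes, with a median log2 difference of -0.26 against 0.02 over all genes, but few of these passed a test. The 3 with an unadjusted p under 0.05 were lower, where 1.39% of all genes were. Cacna2d3, an alpha2delta subunit linked to synapse growth, had 49.5, 74.9, 95.9 and 73.4 CPM per kb in saline and 48.5, 43.1, 59.4 and 37.6 after METH, with a log2 difference of -0.63 ± 0.22 (edgeR FDR = 0.979). Scn2b and Cacna1i had log2 differences of -0.45 ± 0.18 and -0.44 ± 0.19 (edgeR FDR = 0.979 for both). The groups of all 3 overlapped.

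For some channel genes, named after seeing the values, the spread within the SVZ groups followed the 3 libraries with high thalamic and oligodendrocyte marker sums. For others it did not, such as Scn2b, with 146, 164, 213 and 169 CPM per kb in saline and 112, 115, 168 and 109 after METH. Scn1a had 40.5, 8.96, 6.51 and 8.16 CPM per kb in saline and 5.49, 35.2, 10.8 and 27.5 after METH. SVZ Sal 1, SVZ METH 2 and SVZ METH 4 were the 3 highest of the 8 libraries. Cacna1e had 9.14, 62.2, 70.2 and 72.2 CPM per kb in saline and 72.8, 8.87, 40.4 and 22.1 after METH, and here the same 3 libraries were lowest. Without SVZ Sal 1, 12 of 29 channel genes had an unadjusted p under 0.05, where 16.4% of all genes did. Of these, Cacna1g, Scn7a and Scn4a were higher and 9 were lower, with Cacna2d3 at -0.79 (edgeR FDR = 0.270) and Scn4b at -1.31 (edgeR FDR = 0.270). Without all 3 libraries 10 of 30 had such a p, where 6.73% of all genes did, and 9 of these 10 were lower after METH. The SVZ METH libraries bore only 2 library numbers, and with libraries of the same number summed 1 of 30 channel genes had such a p, where 1.09% of all genes did.

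**Figure D5:**
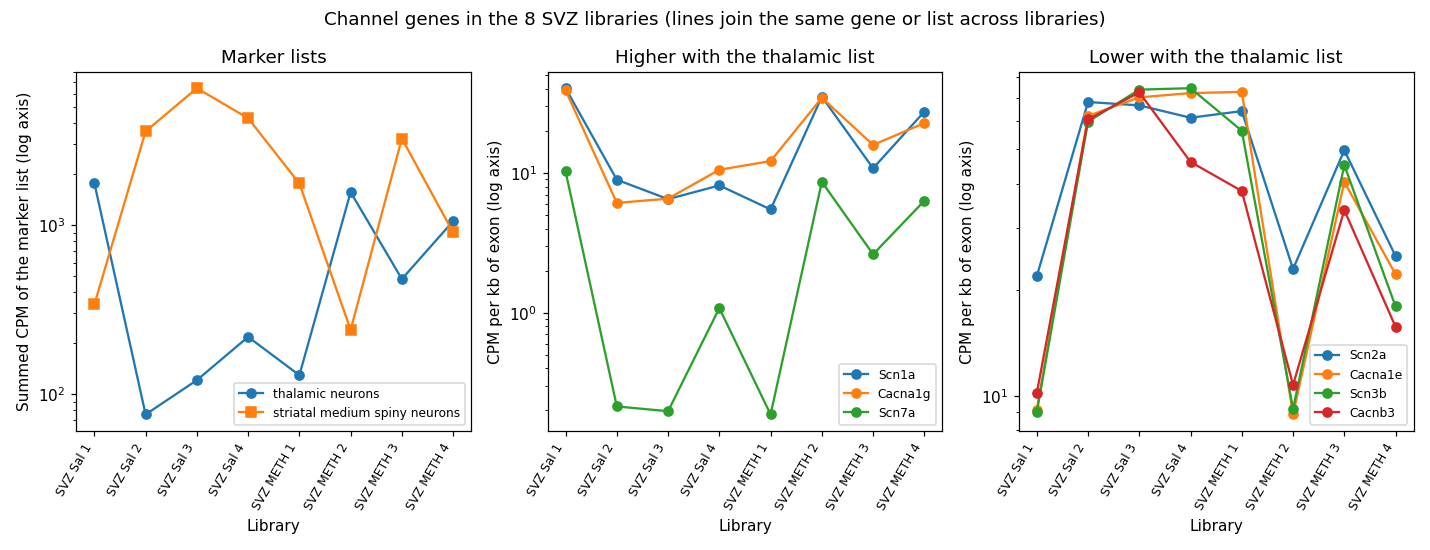
Summed marker levels and levels of 7 channel genes in the 8 SVZ libraries, with the saline and METH libraries named. SVZ Sal 1, SVZ METH 2 and SVZ METH 4 have the highest thalamic marker sums, the highest Scn1a, Cacna1g and Scn7a and the lowest Scn2a, Cacna1e, Scn3b and Cacnb3.

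Over the 4 regions together, with region as a term, 2 of 31 channel genes had an unadjusted p under 0.05, where 7.45% of all genes did, and none passed the FDR threshold (0% of all genes did). Scn4b was lower after METH by a log2 difference of -1.06 ± 0.39 (edgeR FDR = 0.583). Cacnb4 was lower by -0.36 ± 0.14 (edgeR FDR = 0.590), and its mean was lower after METH in each of the 4 regions. Without the 6 libraries named for their marker levels the difference was -0.36 for Cacnb4 (edgeR FDR = 0.611) and -0.76 for Scn4b (edgeR FDR = 0.657), and the latter no longer had an unadjusted p under 0.05.

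The proteins that anchor and modulate these channels were read from a list of 37 genes, of which 35 were tested in the DG. There, 5 were higher after METH and 3 lower at an unadjusted p under 0.05, beside 6.35% and 6.42% of all genes. Fgf13, an intracellular partner of sodium channel pores, had a log2 difference of 1.06 (edgeR FDR = 0.214), Cacng8, an AMPA receptor partner of the calcium channel gamma family, 1.21 (edgeR FDR = 0.214), and Rims2, an active zone protein that binds calcium channel beta subunits, -0.44 (edgeR FDR = 0.203). Of the 35 tested in each other region, none had such a p in the NAc, 4 did in the CA and 3 in the SVZ, beside 3.39%, 7.16% and 2.58% of all genes. Among the METH libraries 8 of 35 were called between regions, with Fgf13 at a log2 range of 2.02 (edgeR FDR = 0.000124) and Calm3, a calmodulin gene, at 0.86 (edgeR FDR = 0.000614), beside the 9.18% of all genes.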

How the data were processed

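RNA-seq libraries (Universal Plus mRNA-seq kit, rRNA-depleted RNA) were made from 8 groups of 4. The deposited counts are raw whole-number reads per gene made by the authors with cutadapt 2.7, STAR 2.5.2b on rn6 and featureCounts 1.6.3 (minimum mapping quality 10, not stranded, by gene name), with FastQC 0.11.4 per the labels. Groups came from the sample titles. In R 4.3.3, edgeR 4.0.16 with upper-quartile normalization, filterByExpr and the quasi-likelihood test was fitted on all genes, with Benjamini-Hochberg adjustment (FDR). A gene was called at FDR under 0.01 and above 1.5-fold, and unadjusted p under 0.05 is given beside it. Named genes are those called or, where fewer than 6 were, up to 6 with the lowest p under 0.05, and the abundant members of each class. Genes named for their values in libraries that stood apart were chosen after seeing them. DESeq2 1.42.0, TMM, no filter, RUVr factors (which the study used, their number not being given in the sources used here), a replicate block, one fit of all libraries, the sequencing run and leaving out or summing libraries were alternatives. The members and lists were chosen with earlier results of these data known. Results of 2 members are not reported here, although the counts of genes include them, and flags and figures leave them out. Scripts were tested on simulated data. Total counts of 11094002 to 21869773 limit precision for genes with few reads.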

Additional observations from a re-analysis of the deposited data

Results flagged for a closer look

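A library far from the other 3 of its group was looked for in 204 pairs of channel gene and group with at least 30 reads, and 29 were found. The cutoff passes about 1 in 20 groups of independent, normally distributed values. Genes of the same libraries are not independent, so the 29 cannot be set against that rate. The values are levels in CPM per kb of exon, and the causes were not tested. NAc METH 3 accounted for 9 of the 29. Its Scn4b at 5.35 (others 77.1 to 90.4), Scn3b at 38.6, Cacna1e at 33.4, Cacna2d1 at 32.9 and Cacnb2 at 15.5 lay below the other libraries. Its Cacna1g at 22.7 (others 4.92 to 7.11), Cacna2d2 at 43.5, Scn7a at 1.55 and Scn4a at 1.01 lay above them. SVZ Sal 1 accounted for 6, with Scn1a at 40.5, Cacna1g at 39.1, Scn7a at 10.3 and Scn4a at 1.86 above the other saline libraries, and Scn2a at 21.9 and Cacna1e at 9.14 (others 62.2 to 72.2) below them.

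In the DG, DG Sal 3 was above its group for Cacna2d2 at 51.5 and Scn11a at 0.324, and DG Sal 4 for Cacna1f at 21.1 and Cacna2d4 at 14.6. DG Sal 2 was above its group for Cacnb4 at 65.0 (others 40.0 to 40.4), and DG METH 3 was below for Scn8a at 67.6 and Cacnb3 at 41.0. The other flagged values were Cacna1e at 42.9 and Cacna2d1 at 26.7 in NAc Sal 2, both low, Cacna1c at 11.2 and Cacnb1 at 42.5 in CA METH 1, both low, Cacna1b at 24.7 in CA Sal 4, low by little, Scn8a at 77.6 in CA METH 4, high, and Scn2b at 168.2 in SVZ METH 3, high.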

How the results depend on the processing

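Direction was checked in the alternatives only for the genes called in a comparison or named for the lowest p, and none of these reversed. Other named genes were outside this check. The mean of Scn4b in the NAc was lower after METH, but with the sequencing run as a term its log2 difference was 0.13 ± 1.35 (SE). TMM scaling and the fit without a low-count filter left every count below within 1.5 times its value. Among METH samples 9 channel genes were called between regions at FDR under 0.01 and 1.5-fold, beside 9.18% of all genes. They became 21 with 2 RUVr factors (21.3% of all genes), 22 with 4 (26.9%) and 16 with DESeq2 (19.3%). They were 2 without the crossed DG libraries (3.58%) and 11 with SVZ METH libraries of one number summed (8.98%). When one library was left out they were 4 to 11 (5.42 to 13%), with 4 or 5 without NAc METH 1, 2 or 4, DG METH 1, 2 or 4, CA METH 2, 3 or 4, or SVZ METH 3 or 4. Among saline samples the 0 called became 8 and 12 with 2 and 4 factors (6.5% and 13.9% of all genes) and 2 with DESeq2 (7.77%). They were 4 without the libraries apart in marker level (7.19%) and 2 without the crossed libraries (1.07%). When one was left out they were 0 to 2 (0 to 2.85%), the 2 being without DG Sal 3. DESeq2 called 3 channel genes in the DG (1.3% of all genes) and 1 in the difference between the DG and CA (0.555%). With 4 RUVr factors 4 were called in that difference (3.25%), 1 in the CA (0.835%) and 1 in the SVZ (0.116%).

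Counts at an unadjusted p under 0.05 are given with the share of all genes in brackets. With 2 and 4 RUVr factors they were 11 and 15 in the NAc (13.8% and 19.7%), 7 and 10 in the CA (12.9% and 22.2%) and 14 and 17 in the SVZ (19.3% and 24.4%). They were 10 and 12 over the 4 regions (14.7% and 20.1%) and 22 and 25 between saline regions (41.4% and 52.2%). With 4 factors they were 19 in the DG (24.7%) and 18 for the DG and CA difference (27.3%). The count for that difference was 6 without DG Sal 3 and DG Sal 4 (16.2%) and 16 without the crossed libraries (15.8%). In the CA the 3 genes became 0 in one fit of all libraries (3.65%) and 1 with the sequencing run as a term (5.32%). The SVZ, with a single run name, has no such fit. In the SVZ the 3 became 10 without the libraries apart in marker level (6.73%) and 1 with libraries summed (1.09%). Leaving out one library gave 0 to 1 in the NAc (1 without NAc Sal 1 or NAc Sal 4), 7 to 13 in the DG, 1 to 5 in the CA (1 without CA Sal 1, CA METH 2 or CA METH 3, 5 without CA Sal 2 or CA Sal 4), 0 to 12 in the SVZ, the 12 being without SVZ Sal 1 and the 0 without SVZ Sal 3 or SVZ METH 4, 2 to 5 over the 4 regions, the 5 again without SVZ Sal 1 and 4 without CA Sal 1, 7 to 13 for the DG and CA difference, 7 to 13 between saline regions and 17 to 25 between METH regions. The alternatives that leave out named libraries or sum them were chosen after seeing the data, and the cause of each move was not tested.

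Within a region, saline and METH libraries of the same replicate number correlated above 0.1 in at most 2 of 4 pairs, from -0.76 to 0.38. These pairs are of different rats, so they cannot show whether libraries of one rat vary together between regions. Between regions, pairs of the same number had a median correlation of 0.006 in saline and -0.005 in METH, with 6 of 24 above 0.1 in each. With a replicate block the counts at an unadjusted p under 0.05 were 0 in the NAc (2% of all genes), 9 in the DG (12.3%), 4 in the CA (7.74%) and 4 in the SVZ (1.07%). They were 2 over the 4 regions (7.16%) and 8 for the DG and CA difference (14.5%). With the block 6 channel genes were called between METH regions (5.97% of all genes) and 0 between saline regions (0%). Samples that correlated best with a library of their own replicate number were 7 of 16 between METH regions and 2 of 16 between saline regions. They were 3 of 16 for the DG and CA difference, 3 of 32 over the 4 regions and 1 to 3 of 8 within a region.

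The number of libraries, 4 a group, sets the smallest difference that passes, and Scn10a, Scn11a, Cacna1s, Cacna1f and Cacna2d4 were left out of some or all of the tests by the filter on low counts.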
